A study of Mus musculus with 4 samples.

Results

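Interferon regulatory factors (IRFs) are transcription factors that bind interferon-stimulated response elements in DNA, and the 8 genes described here are Irf1, Irf2, Irf3, Irf4, Irf5, Irf7, Irf8 and Irf9. They were taken by name, and every probe set that the platform annotation assigns to 1 of them alone was used, which gave 14 of the 22626 probe sets tested and 8 of 12393 genes. No probe set was shared between a member and another gene. The cells were Langerhans cells, the dendritic cells of the epidermis, taken from ear skin of mice whose aryl hydrocarbon receptor (AhR) gene is deficient in exon 2 (2 arrays) and of wild-type C57BL/6 mice (2 arrays). All 4 samples came from untreated mice and spent 16 hours in culture before living MHC class II-positive cells were sorted to a stated purity above 95%. The deletion is described as a property of the mice, with no cell type to which it is limited, so cells other than Langerhans cells may lack the receptor too. The sources used here do not give the strain of the AhR-deficient mice, any ages or how many mice stand behind an array.

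The family divides by task. Irf3 and Irf7 are phosphorylated by the kinases TBK1 and IKKε after viral or bacterial nucleic acid is sensed, and they switch on the type I interferon genes; Irf5 acts beside them downstream of Toll-like receptors. Secreted interferon then signals through its receptor to the complex ISGF3, which holds STAT2 and Irf9, and Irf7 is itself a target of that complex. Irf1 is an activator induced by interferon-gamma, Irf2 competes with it for the same sites, and Irf4 and Irf8 work with partners such as PU.1 and BATF3 to set the fate of dendritic cell subsets.

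The DNA in front of the 2 genes with the greatest differences is shown because these factors act through short DNA elements. That of Ifit3 is shown as an example of a target, picked because its values ran with Irf7. The windows hold the 250 bases before and 50 after a gene start, are RefSeq sequences of GRCm38.p6 matched by symbol (all 8 members had at least 1 window), and run 5' to 3' on the gene's strand. Capitals mark GAAANNGAA on either strand, the core of the interferon-stimulated response element, TTCNNNGAA, the gamma-activated site, which reads alike on both strands, and GCGTG on either strand, the core that AhR binds with Arnt. The windows lie at chr7:141266375-141266674 on the minus strand for Irf7, chr8:120736108-120736407 on the plus strand for Irf8 and chr19:34583279-34583578 on the plus strand for Ifit3.
Irf7: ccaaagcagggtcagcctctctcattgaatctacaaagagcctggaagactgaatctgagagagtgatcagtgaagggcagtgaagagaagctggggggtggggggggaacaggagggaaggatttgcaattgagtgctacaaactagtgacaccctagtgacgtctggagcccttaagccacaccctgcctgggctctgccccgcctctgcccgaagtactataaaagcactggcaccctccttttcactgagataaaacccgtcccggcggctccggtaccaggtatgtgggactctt
Irf8: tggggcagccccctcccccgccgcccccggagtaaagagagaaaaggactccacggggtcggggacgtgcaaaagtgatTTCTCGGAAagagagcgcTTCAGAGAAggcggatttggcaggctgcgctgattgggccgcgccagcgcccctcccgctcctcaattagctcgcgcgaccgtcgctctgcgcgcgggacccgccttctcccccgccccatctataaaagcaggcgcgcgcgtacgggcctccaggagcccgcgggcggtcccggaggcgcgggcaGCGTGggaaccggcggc
Ifit3: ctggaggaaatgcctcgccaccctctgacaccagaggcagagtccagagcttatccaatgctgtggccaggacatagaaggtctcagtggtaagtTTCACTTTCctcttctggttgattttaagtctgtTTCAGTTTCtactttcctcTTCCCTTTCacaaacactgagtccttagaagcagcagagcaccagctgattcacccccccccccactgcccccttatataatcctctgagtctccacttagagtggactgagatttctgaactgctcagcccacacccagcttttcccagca
Irf7 had none of the 3 motifs in this window. Irf8 had TTCNNNGAA starting at bases 80 and 98 from the 5' end and GCGTG at base 284. Its other window, at chr8:120738389-120738688, is not shown and held none of the 3 motifs. Ifit3 had 3 matches to the response element core, at bases 96, 130 and 149, all on the opposite strand, so that the capitals show the reverse complement. Among the 11 windows of the 8 members, 1 held GAAANNGAA (Irf2), 3 held TTCNNNGAA (Irf1, Irf2 and Irf8) and 5 held GCGTG (in Irf1, Irf3, Irf4 and Irf8). Of all 32851 windows, 8.56%, 8.30% and 32.39% held these motifs in turn. Of the 23 measured interferon-stimulated genes, 16 had a window, and 11 of their 21 windows (52.4%) held GAAANNGAA, in 2 of which it overlapped TTCNNNGAA. Of the same 21 windows, 8 (38.1%) held TTCNNNGAA and 10 (47.6%) held GCGTG. Oasl2, Ifit2, Isg20, Ifi35 and Oasl1 held no GAAANNGAA in any window. Like Ifit3, they read higher on both AhR-deficient arrays than on both wild-type arrays. A match is a run of letters and not a known binding site, and these windows do not bear on more distant elements.

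Expression was read on Affymetrix MOE430A arrays as log2 values per probe set, and each difference below is log2, AhR-deficient minus wild type. Where a gene had several probe sets, the brightest on average over the 4 arrays was read for it. A call is an adjusted p under 0.05 over all probe sets in limma, a linear model with variances moderated across probe sets, and SE is its moderated standard error. The smallest p that an exact permutation test of 2 against 2 arrays can give is 0.333, so no such test was run, and the p-values of limma measure only the spread between these samples.

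Ahr itself read 8.55 and 8.60 on the AhR-deficient arrays, against 7.61 and 8.23 on the wild-type arrays; whether its probes lie in the deleted exon was not tested, so this does not check the labels. Ahrr, the AhR repressor and a known AhR target, read 5.32 and 5.09 in AhR-deficient samples, compared with 8.26 and 8.38 in wild-type samples, and it fell in AhR-deficient cells (-3.11, SE 0.11, limma adjusted p = 0.040). The 4 arrays did not separate cleanly by genotype. Over all probe sets wild-type replicate 1 correlated less with wild-type replicate 2 (r = 0.9871) than AhR-deficient replicate 2 did (0.9894). The 3' minus 5' signal of the Actb control, a measure of RNA length, was 2.34 and 2.61 on the AhR-deficient arrays, against 3.16 and 2.65 on the wild-type arrays, with wild-type replicate 1 the highest. That of Gapdh was 2.24 and 2.19 on the AhR-deficient arrays, against 2.60 and 1.97 on the wild-type arrays. Of all genes, 18.8% were higher and 16.6% lower without overlap of the arrays, and the counts of marker genes here are read against these shares. Of 13 Langerhans cell markers, 5 were higher and 2 lower without overlap, and their summed linear signal was 19108 and 17293 on the AhR-deficient arrays, against 13144 and 17332 on the wild-type arrays, with wild-type replicate 1 the lowest. The higher ones were the MHC class II genes H2-Aa (1.31, SE 0.14) and H2-Ab1 (1.24, SE 0.27), the invariant chain Cd74 (0.93, SE 0.12), Sirpa (0.96, SE 0.28) and Itgax (0.14, SE 0.10). The lower ones were Csf1r, the receptor that Langerhans cells need to persist (-1.05, SE 0.26), and Cd24a (-0.43, SE 0.09). The cells were sorted on MHC class II. The defining markers overlapped, with langerin (Cd207) at 11.21 and 11.71 in AhR-deficient samples, compared with 11.00 and 12.06 in wild-type samples, and Epcam at 11.06 and 10.71 on the AhR-deficient arrays, against 11.02 and 11.38 on the wild-type arrays. The keratinocyte list had a summed linear signal of 1274 and 788 on the AhR-deficient arrays, against 698 and 741 on the wild-type arrays, where AhR-deficient replicate 1 stood alone, and 7 of its 16 genes were higher and 2 lower without overlap. Krt14, a keratin of basal keratinocytes, read 5.55 and 4.96 in AhR-deficient samples, compared with 4.60 and 4.76 in wild-type samples. For T cells the sums were 360 and 383 on the AhR-deficient arrays, against 450 and 414 on the wild-type arrays, with 3 of 10 genes lower and 0 higher. Cd3g, a chain of the T cell receptor complex, read 4.52 and 4.26 on the AhR-deficient arrays, against 5.80 and 5.50 on the wild-type arrays. For monocytes, macrophages and neutrophils they were 1795 and 1356 in AhR-deficient samples, compared with 893 and 1109 in wild-type samples, with 7 of 14 higher and 2 lower. The part of these markers and of RNA length in the results below was not tested.

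No IRF gene was called. Of the 8 members, 0 passed in either direction, where 0% of all genes passed as higher and 0.0323% as lower. Both AhR-deficient arrays lay above both wild-type arrays for 2 members, Irf7 and Irf5, against 18.8% of all genes, and below them for 1, Irf8, against 16.6%. At an unadjusted p under 0.05 in limma there was 1 higher member, Irf7, against 3.50% of all genes, and 1 lower member, Irf8, against 3.04%. Over the 14 probe sets, 3 were higher without overlap (19.0% of all probe sets) and 4 lower (16.2%). The median difference of the 8 genes was 0.15, beside 0.01 over all genes, and differences ran from -0.51 to 0.75. The counts without overlap moved with single arrays: omitting AhR-deficient replicate 1 left 2 higher and 3 lower members, omitting AhR-deficient replicate 2 left 5 and 1, omitting wild-type replicate 1 left 3 and 3, and omitting wild-type replicate 2 left 4 and 1. With 3 arrays fewer values have to be in order, so such counts are not comparable with those over 4. The median came to 0.04 and 0.32 with AhR-deficient replicates 1 and 2 omitted in turn, and to 0.16 and 0.14 with wild-type replicates 1 and 2 omitted.

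**Figure D1:**
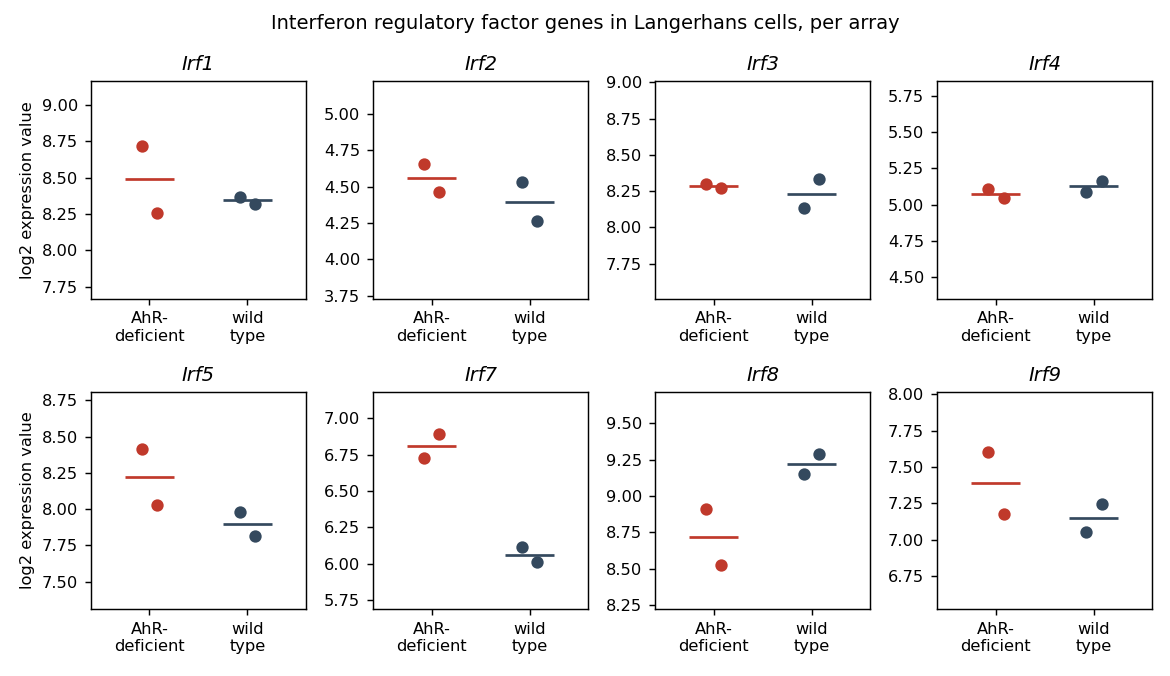
Log2 expression values of the 8 IRF genes in each array (points) with the group mean of 2 arrays (line), AhR-deficient on the left and wild type on the right of each panel; every panel spans the same range of log2 units. Irf7 is higher and Irf8 lower in both AhR-deficient arrays, by 0.75 and -0.51, while 5 genes overlap between genotypes.

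Irf7, which amplifies the type I interferon response, had the greatest difference in the family. Its log2 value was 6.73 and 6.89 on the AhR-deficient arrays, against 6.11 and 6.01 on the wild-type arrays. The arrays of a genotype lay within 0.2 log2 of each other, and the genotypes did not overlap. The difference was 0.75 (SE 0.10), a fold of 1.68 with a 95% interval of 1.39 to 2.02, and it missed the threshold after adjustment (limma adjusted p = 0.402). An absolute difference at least as large was found for 1.34% of all probe sets. Leaving out each array in turn gave values between 0.66 and 0.83, all positive. In a bulk sample such as this, more or fewer cells of a type cannot be told apart from more or less RNA per cell.

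Irf3, the factor that starts the interferon response and is kept in the cytoplasm until phosphorylated, overlapped between genotypes. It read 8.30 and 8.27 on the AhR-deficient arrays, against 8.13 and 8.33 on the wild-type arrays. The AhR-deficient arrays lay inside the wild-type range, with a difference of 0.05 (SE 0.10, limma adjusted p = 0.971) and a 95% interval of -0.22 to 0.33. The probe set read there has the suffix _x_at, which marks probes that may also bind other transcripts. The other 3 Irf3 probe sets differed by 0.04 (SE 0.13), -0.07 (SE 0.08) and 0.11 (SE 0.08). They did not share a direction, and the last sat low on the array, at the 19.2nd percentile of mean level. Without wild-type replicate 1 the difference of the first turned to -0.05.

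Irf5, which is activated through MyD88 and drives inflammatory cytokine genes, gave opposite readings from its probe sets. The brighter one read 8.41 and 8.03 in AhR-deficient samples, compared with 7.98 and 7.82 in wild-type samples. All of its AhR-deficient values were above the wild-type ones, by 0.32 on average (SE 0.16, limma adjusted p = 0.870), although AhR-deficient replicate 2 lay only 0.05 above wild-type replicate 1. The dimmer one read 6.81 and 6.84 on the AhR-deficient arrays, against 6.90 and 6.87 on the wild-type arrays, which was lower without overlap by a small margin (-0.06, SE 0.07). Averaged over both probe sets Irf5 differed by 0.13 (SE 0.10) and its arrays overlapped. The brighter probe set differed by 0.13 with AhR-deficient replicate 1 omitted, by 0.52 with AhR-deficient replicate 2 omitted, and by 0.41 and 0.24 with wild-type replicates 1 and 2 omitted.

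Irf9, the DNA-binding subunit of ISGF3, read 7.60 and 7.18 on the AhR-deficient arrays, against 7.05 and 7.25 on the wild-type arrays. AhR-deficient replicate 1 was the highest of the 4 and the remaining arrays overlapped. The difference was 0.24 (SE 0.18, limma adjusted p = 0.901). Leaving out AhR-deficient replicate 1 gave 0.03 and leaving out AhR-deficient replicate 2 gave 0.45; for wild-type replicates 1 and 2 left out it was 0.14 and 0.34.

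Irf1, an activator of antigen presentation genes, read 8.72 and 8.26 in AhR-deficient samples, compared with 8.37 and 8.32 in wild-type samples. Again AhR-deficient replicate 1 alone was high, and AhR-deficient replicate 2 was the lowest of the 4 arrays. The difference of 0.15 (SE 0.17, limma adjusted p = 0.937) turned to -0.08 when AhR-deficient replicate 1 was left out and was 0.38 when AhR-deficient replicate 2 was; it came to 0.17 and 0.12 with wild-type replicates 1 and 2 omitted. Irf2, its competitor, read 4.66 and 4.46 on the AhR-deficient arrays, against 4.53 and 4.26 on the wild-type arrays, which overlapped. These values lay at the 23.1st percentile of mean level, where a change would be understated, and the difference was 0.16 (SE 0.14, limma adjusted p = 0.910). With each array left out in turn it lay between 0.03 (without wild-type replicate 2) and 0.30. Its only probe set has the suffix _s_at, for probes shared by several transcripts.

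Irf8 is required for the dendritic cell lineage that cross-presents antigen and for plasmacytoid dendritic cells. It was the only member whose brightest probe set read lower on both AhR-deficient arrays than on both wild-type arrays. Its brighter probe set read 8.91 and 8.52 on the AhR-deficient arrays, against 9.15 and 9.29 on the wild-type arrays. The dimmer one read 7.37 and 7.21 in AhR-deficient samples, compared with 7.98 and 7.76 in wild-type samples. Neither overlapped between genotypes, and AhR-deficient replicate 2 was the lowest array in both. The first differed by -0.51 (SE 0.16, limma adjusted p = 0.770), a fold of 0.703 with a 95% interval of 0.522 to 0.945. The second differed by -0.58 (SE 0.12, limma adjusted p = 0.606). Both probe sets were designed from the same sequence record, so they are 2 readings of the same gene and not independent evidence. The difference of the first was -0.70 with AhR-deficient replicate 1 omitted, -0.32 with AhR-deficient replicate 2 omitted, -0.58 with wild-type replicate 1 omitted and -0.44 with wild-type replicate 2 omitted.

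Irf4, the closest relative of Irf8, which marks another lineage of conventional dendritic cells and is induced during maturation, did not differ detectably. It read 5.11 and 5.05 on the AhR-deficient arrays, against 5.09 and 5.17 on the wild-type arrays. The arrays overlapped, with a difference of -0.05 (SE 0.08, limma adjusted p = 0.962) and a 95% interval of -0.27 to 0.17. The other probe set differed by -0.04 (SE 0.12). Both sat below the array medians of 5.601 to 5.628, at the 38.0th and 36.0th percentiles of mean level.

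**Figure D2:**
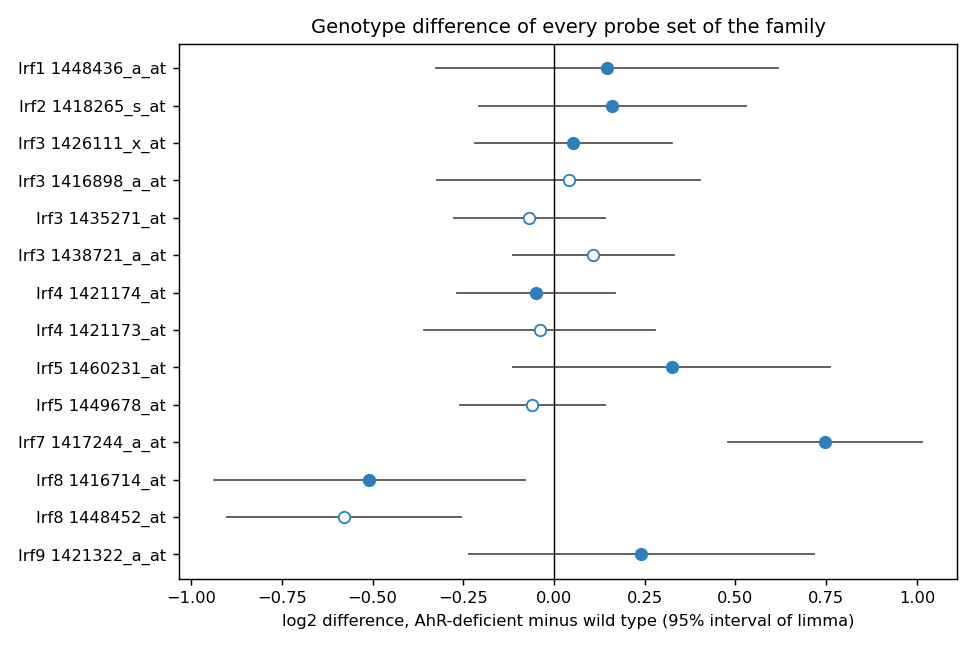
Log2 difference, AhR-deficient minus wild type, for the 14 probe sets of the family, with the 95% interval from limma; filled points are the probe sets that represent a gene. The intervals of Irf7 (0.48 to 1.01) and of both Irf8 probe sets leave out 0 before adjustment for all probe sets tested, and the probe sets of Irf3 and Irf5 fall on both sides of 0.

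The genes that act before and after the IRFs were read in the same fit, and 0 of them were called in any of the 9 pathway lists. Of all genes, 0% were called as higher and 0.0323% as lower. Counts without overlap stand beside 18.8% of all genes higher and 16.6% lower. Of 9 measured interferon genes, 0 were higher and 2 lower without overlap, and the count of lower genes was near the share of all genes, with differences between -0.14 and 0.03. Ifnb1, the first interferon made in most cells, read 5.18 and 5.28 on the AhR-deficient arrays, against 5.26 and 5.26 on the wild-type arrays, a difference of -0.02 (SE 0.08). Ifna4 differed by -0.12 (SE 0.08), Ifnab by -0.04 (SE 0.08) and Ifng by -0.14 (SE 0.10). Several alpha interferon genes are near-identical copies, so a probe set may read more than 1 of them. Ifna2 and Ifna9 lay above the median of every array and the others below it, where a gene that is off cannot be told apart from one that is low.

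Of the interferon receptors, Janus kinases and STATs, 9 were measured, 4 were higher without overlap and 0 lower, against 18.8% and 16.6% of all genes. All 9 differences were above 0 (median 0.23), as were those of 6473 of 12393 genes in all. Stat2, a subunit of ISGF3, read 5.97 and 5.81 in AhR-deficient samples, compared with 5.53 and 5.73 in wild-type samples (0.26, SE 0.11). Jak2 differed by 0.34 (SE 0.17), the receptor chain Ifnar2 by 0.16 (SE 0.08) and Ifngr1, the ligand-binding receptor chain for interferon-gamma, by 0.13 (SE 0.08). Ifnar1, the receptor chain that pairs with Ifnar2, was uneven between arrays (0.31, SE 0.46). It read 8.69 and 7.54 on the AhR-deficient arrays, against 7.47 and 8.14 on the wild-type arrays. The median of the list moved with single arrays, at 0.09 with AhR-deficient replicate 1 omitted, 0.39 with AhR-deficient replicate 2 omitted, 0.04 with wild-type replicate 1 omitted and 0.27 with wild-type replicate 2 omitted.

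Of the sensors, adaptors and kinases upstream of Irf3, Irf5 and Irf7, 5 of 17 were higher without overlap and 0 lower (18.8% and 16.6% of all genes), with a median of 0.05. That median was 0.047 and 0.071 with AhR-deficient replicates 1 and 2 omitted in turn, and 0.091 and 0.015 with wild-type replicates 1 and 2 omitted. The counts moved with the probe sets read, to 4 higher and 1 lower without _s_at and _x_at probe sets. With all probe sets of a gene averaged they were 5 higher and 2 lower. Tbk1, the kinase of Irf3 and Irf7, read 8.97 and 8.82 on the AhR-deficient arrays, against 8.90 and 8.99 on the wild-type arrays, which overlapped (-0.05, SE 0.10). Dhx58, a regulator of the cytosolic RNA sensors and itself interferon-inducible, differed by 0.70 (SE 0.17); it stands with Ifih1 among the interferon-stimulated genes below. Unc93b1, which carries nucleic acid-sensing Toll-like receptors to the endosome, differed by 0.17 (SE 0.07), and Traf6, a ubiquitin ligase of Toll-like receptor signalling, by 0.17 (SE 0.08). The others were the RNA sensors Ifih1 (0.52, SE 0.26) and Tlr7 (0.06, SE 0.07). The probe set read for Tlr7 has the suffix _x_at, so its probes may also bind other transcripts. Of proteins that bind, modify or restrain IRFs or interferon signalling, 3 of 10 were higher without overlap and 0 lower, beside the same shares of all genes. Their median of 0.07 came to 0.048 and 0.223 with AhR-deficient replicates 1 and 2 omitted in turn, and to 0.136 and 0.162 with wild-type replicates 1 and 2 omitted. The higher genes were the ubiquitin ligases Trim21 (0.37, SE 0.14) and Peli1 (0.41, SE 0.10) and the substrate receptor Fbxw7 (0.50, SE 0.15). Irf2bp1, a corepressor that binds Irf2, differed by -0.07 (SE 0.12).

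Genes reached through Irf9 and Irf7 had differences of the same sign as Irf7. Of 23 measured interferon-stimulated genes, 20 were higher without overlap and 0 lower (beside 18.8% and 16.6% of all genes), 13 were higher at an unadjusted p under 0.05 in limma (beside 3.50%), and all 23 differences were above 0. Their median was 0.45, beside 0.01 over all genes, and it came to 0.45 and 0.55 with AhR-deficient replicates 1 and 2 omitted in turn, and to 0.32 and 0.75 with wild-type replicates 1 and 2 omitted. Interferon-stimulated genes had been seen to be higher in earlier work on these arrays, so this count is no independent evidence of the direction. Oasl2, an antiviral oligoadenylate synthetase-like protein, read 5.36 and 5.30 in AhR-deficient samples, compared with 4.22 and 4.26 in wild-type samples (1.09, SE 0.08, limma adjusted p = 0.178). Rtp4 read 8.50 and 8.50 on the AhR-deficient arrays, against 6.07 and 6.84 on the wild-type arrays, a difference of 2.05 (SE 0.27, limma adjusted p = 0.402). Ifit3, which blocks translation of foreign RNA with its partners, read 6.30 and 6.47 on the AhR-deficient arrays, against 5.61 and 5.73 on the wild-type arrays (0.72, SE 0.10, limma adjusted p = 0.436).

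The array that was lowest for the median of these targets was not the one lowest for Irf7, but the Irf7 gap was small. The median of their values, each centred on its gene's mean, was 0.25 and 0.15 in AhR-deficient samples, compared with -0.44 and -0.14 in wild-type samples. Wild-type replicate 1 thus lay furthest below, and that is also the array with the highest 3' minus 5' signal. Irf7 was lower in wild-type replicate 2 (6.01) than in wild-type replicate 1 (6.11), a gap about as wide as the SE of its difference (0.10). Most targets were lower in wild-type replicate 1, but Mx2, Oasl1 and Ifitm3, like Irf7, were lower in wild-type replicate 2. Oas3 read nearly the same on both, at 6.591 in wild-type replicate 1 and 6.590 in wild-type replicate 2. What sets the order of the wild-type arrays was not tested.

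**Figure D3:**
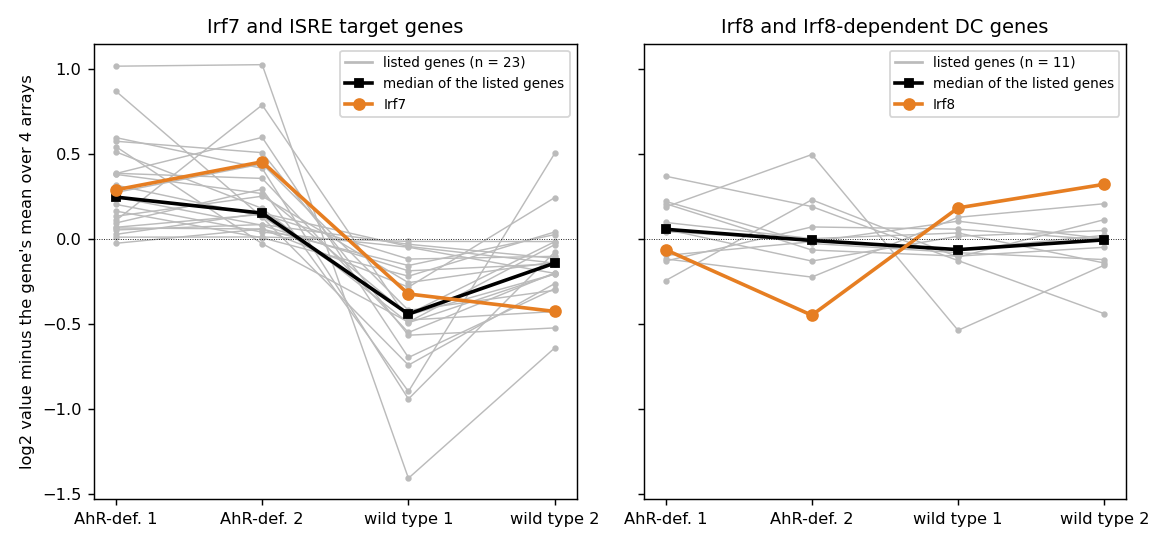
Log2 values in each of the 4 arrays after subtraction of the gene's own mean, for 23 interferon-stimulated genes with Irf7 (left) and 11 genes of the Irf8-dependent dendritic cell lineage with Irf8 (right); thin lines are genes, the black line their median and the orange line the factor. On the left, Irf7 and the median are above 0 in both AhR-deficient arrays and below it in both wild-type arrays. On the right, Irf8 is slightly below 0 in AhR-deficient replicate 1 and further below in AhR-deficient replicate 2. The median on the right stays between -0.06 and 0.06, while single genes go either way.

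Part of the genes known to be reached through Irf1 had higher values in AhR-deficient cells, although Irf1 overlapped between genotypes. Of 23 measured, 12 were higher and 1 lower without overlap, against 18.8% and 16.6% of all genes (median 0.35, which came to 0.27 and 0.39 with AhR-deficient replicates 1 and 2 omitted in turn, and to 0.21 and 0.61 with wild-type replicates 1 and 2 omitted). The median of their centred values was 0.23 and 0.07 on the AhR-deficient arrays, against -0.37 and -0.04 on the wild-type arrays. Wild-type replicate 1, the array with the highest 3' minus 5' signal, lay furthest from 0 here too. B2m, the light chain of MHC class I, differed by 0.67 (SE 0.08), Ifi47, an interferon-inducible GTPase, by 0.999 (SE 0.16), the immunoproteasome subunit Psmb9 by 0.71 (SE 0.14) and the peptide transporter Tap1 by 0.72 (SE 0.24). The lower gene was Lmo2, a transcriptional adaptor (-0.45, SE 0.13). Adjusted p-values in limma were 0.374 for B2m and higher for the others. Many of these genes are also reached through ISGF3, and Cxcl10 stands in this list and in that of the interferon-stimulated genes.

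Of 21 measured partners of Irf4 and Irf8, 4 were higher and 2 lower without overlap, beside 18.8% and 16.6% of all genes. The median of 0.04 turned to -0.059 with AhR-deficient replicate 1 omitted, and was 0.111 with AhR-deficient replicate 2 omitted and 0.026 and 0.084 with wild-type replicates 1 and 2 omitted. Spi1, which encodes PU.1, read 6.95 and 6.83 on the AhR-deficient arrays, against 6.64 and 6.73 on the wild-type arrays (0.20, SE 0.09). Batf3, the partner with which Irf8 maintains its own expression in cross-presenting dendritic cells, read 8.89 and 8.71 on the AhR-deficient arrays, against 8.39 and 8.08 on the wild-type arrays. It was higher without overlap, by 0.56 (SE 0.14, limma adjusted p = 0.706), where Irf8 was lower. Batf and Batf2, relatives of Batf3, differed by -0.07 (SE 0.08) and -0.05 (SE 0.07), the myeloid factors Klf4 and Cebpa by 0.69 (SE 0.30) and 0.11 (SE 0.08), and Id2, an inhibitor of E proteins that dendritic cells of the skin need, by -0.01 (SE 0.19).

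Genes of the 2 conventional dendritic cell lineages were set beside Irf8 and Irf4. Of 11 measured genes of the Irf8-dependent lineage, 3 were higher and 2 lower without overlap, near the 18.8% and 16.6% of all genes. The median was 0.04, or 0.045 and 0.064 with AhR-deficient replicates 1 and 2 omitted in turn, and -0.004 and 0.080 with wild-type replicates 1 and 2 omitted. Members went opposite ways: the integrin Itgae read 6.50 and 6.39 in AhR-deficient samples, compared with 6.74 and 6.82 in wild-type samples (-0.34, SE 0.09), and the adhesion molecule Cadm1 read 7.41 and 7.72 on the AhR-deficient arrays, against 6.68 and 7.06 on the wild-type arrays (0.69, SE 0.18). Batf3 stands in this list too, and the others without overlap were Naaa (0.20, SE 0.11) and Gcsam (-0.11, SE 0.09). Of 11 genes of Irf4-associated dendritic cells, 6 were higher and 1 lower without overlap, beside the same shares of all genes, with a median of 0.32, which lay between 0.19 (wild-type replicate 2 omitted) and 0.26 with any 1 array left out. The lectin Mgl2 differed by 0.67 (SE 0.13), the inhibitory receptor Sirpa by 0.96 (SE 0.28) and the lectin Clec10a by 0.25 (SE 0.08), while Cd4 was the lower gene (-0.06, SE 0.08). Sirpa stands among the Langerhans cell markers above and is carried by macrophages too, whose list is also given above. Markers of plasmacytoid dendritic cells, which hold high Irf7 and Irf8, had summed linear signals of 375 and 340 on the AhR-deficient arrays, against 398 and 383 on the wild-type arrays. Of 7 measured, 1 was higher, Klk1 (0.19, SE 0.07), and 2 were lower without overlap, Tcf4 (-0.25, SE 0.14) and Cox6a2 (-0.20, SE 0.08). Those 2 alone lay above the median of every array, and the counts stand beside 18.8% and 16.6% of all genes. B cell markers, from cells that also hold Irf4 and Irf8, summed to 291 and 340 in AhR-deficient samples, compared with 331 and 314 in wild-type samples, with 1 of 6 higher and 1 lower, near the shares of all genes.

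**Figure D4:**
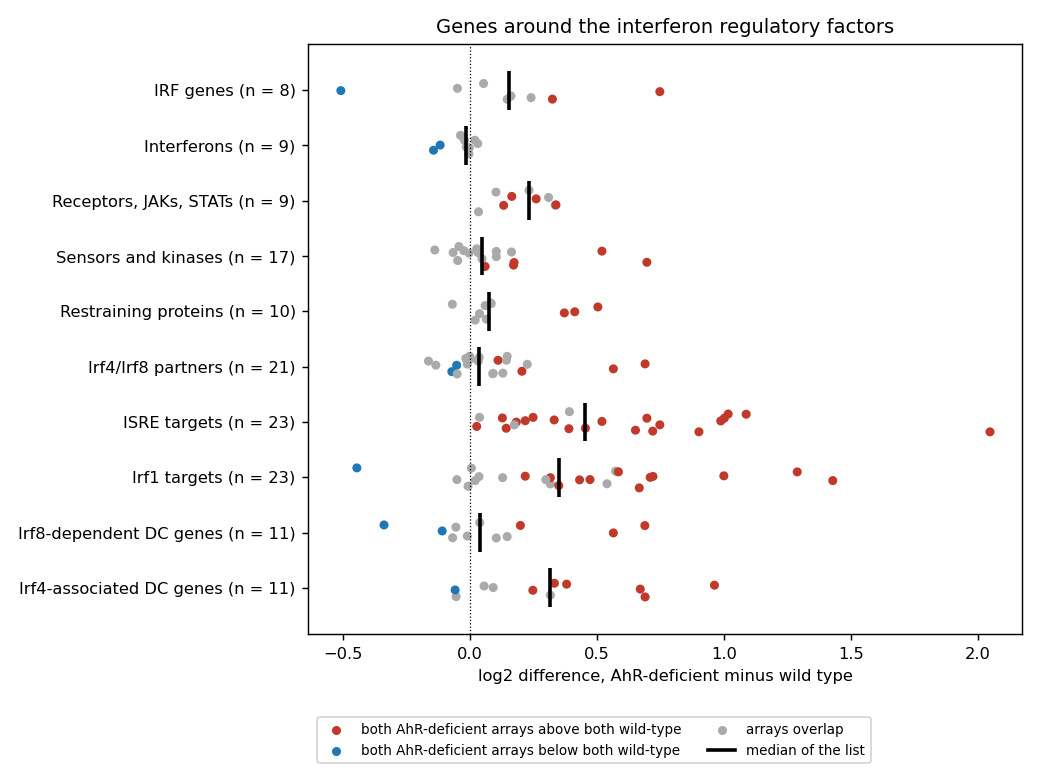
Log2 difference, AhR-deficient minus wild type, for the IRF genes and the 9 pathway lists; each point is a gene, the bar is the list's median, and colour marks whether the 2 AhR-deficient arrays lay above or below both wild-type arrays. The targets reached through Irf9 and Irf7 have a median of 0.45 and no gene below 0, the Irf1 list has a median of 0.35, and the interferon genes stay between -0.14 and 0.03.

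Among 7263 genes at or above the median level, those whose centred values lay closest to Irf7 over the 4 arrays were Btg2, Rell1 and Pkib, at root mean square distances of 0.05, 0.07 and 0.07 log2. In all 13 genes lay within 0.1 of it. Btg2, an antiproliferative gene, read 8.99 and 9.05 on the AhR-deficient arrays, against 8.31 and 8.31 on the wild-type arrays. The closest to Irf8 were Hmgn5, a nucleosome-binding protein, Hspa4l, a chaperone, and Vsir, a checkpoint receptor, at distances of 0.03, 0.04 and 0.04, with 21 genes within 0.1. Hmgn5 read 7.53 and 7.23 on the AhR-deficient arrays, against 7.83 and 7.95 on the wild-type arrays. With 4 arrays many genes resemble any pattern.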

How the data were processed

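Langerhans cell RNA of 4 samples was amplified, labelled with biotin and hybridised to MOE430A arrays, per the labels' protocols. What the authors deposited is a log2 value for each probe set and array; affy and RMA are named in the submitters' processing notes, and the log2 scale was read from the values. RMA as usually run corrects the background, quantile-normalises the arrays and summarises probes. Versions and a genome build are not given in the sources used here. No further scaling was applied, and 0 pairs of arrays were identical. Of 22690 probe sets, 64 controls were left out, and 22626 were tested in R 4.3.3 by the moderated linear model of limma 3.58.1 (lmFit, then eBayes, with genotype as the term, residual degrees of freedom 2, prior 2.27), with Benjamini-Hochberg adjustment over all of them. By the platform annotation 20380 probe sets have 1 symbol, 691 have several and 1555 have none; those with 1 were named. The number of arrays limits precision, with a median SE of 0.10. The labels call the samples biological replicates. No set test was run. The limma step alone was tested on simulated data, with added differences of 1, 2 and 3 log2. All of these exceed the differences of the members, so that test does not bear on calls at their size. The members and lists were chosen with earlier results of these data known. Named genes are all members, the 3 with the smallest p in each pathway list and a fixed set, some of which are not reported here; a few more, named where a count was small, were chosen after their values were seen. Of 247 listed genes, 208 were measured. Each choice was varied in turn: the replicate number as a block, a trended or a robust variance prior, a filter on dim probe sets, a repeated quantile normalisation, centring on array medians, weights on arrays, 16 added on the linear scale, other ways to pick a gene's probe set, and the omission of each array.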

Additional observations from a re-analysis of the deposited data

How the results depend on the processing

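No IRF gene was called under any of the 14 other settings chosen at the start (smallest adjusted p in limma 0.248, largest of each setting's smallest 0.992), and Irf7 stayed positive (0.63 to 0.83) and Irf8 negative (-0.70 to -0.32) in all of them. Irf1 lay between -0.084 (without AhR-deficient replicate 1) and 0.376, and Irf3 between -0.048 (without wild-type replicate 1) and 0.154; the cause was not tested. With each array left out in turn, members higher without overlap numbered 2 to 5 and members lower 1 to 3. With all probe sets of a gene averaged, 1 member was higher without overlap, since Irf5 overlapped. Without dim probe sets Irf2 and Irf4 had no value, and without _s_at and _x_at probe sets Irf2 had none. With an eBayes trend, 1 interferon-stimulated gene, Oasl2, was called; the cause was not tested. Over all probe sets 4 were called, 8 with the trend, 2 without dim probe sets, and 0 with the offset of 16 or with any array left out. The samples share only a replicate number: deviations of same-numbered samples correlated at -0.309, and with the replicate block no member was called (count 0, smallest adjusted p 0.992) and 0 probe sets were. A crossed replicate block, chosen after seeing the data, called 0 probe sets. Where 1 array of a group is left out, the lone array is assumed to vary like the others. Members near the lower end of the signal range, Irf2 and Irf4, could change without a visible difference.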
